A study of Homo sapiens with 4 samples.

Results

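The aminoacyl-tRNA synthetases are the enzymes that join each amino acid to its transfer RNA. They were followed here in HCT116, a colorectal carcinoma cell line of human origin, after depletion of LAS1L, a nucleolar protein needed to process the RNA precursor of the large ribosomal subunit. The list names 35 genes, 19 for the cytosol and 16 for mitochondria and was picked by gene symbol. A probe was named for 34 of them, and 33 had signal above the background limit on at least 2 of the 4 arrays (18 cytosolic and 15 mitochondrial), out of 10466 genes tested. CARS1 was not analysed here, and the single WARS2 probe stayed under the limit.

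The depleted cells had received 40 nM of Las1L siRNA for 72 h, 1 array with siRNA #1 and 1 array with siRNA #2, and the control cells 40 nM of control siRNA for the same time, on 2 replicate arrays. All 4 were Illumina bead arrays of total RNA from transiently transfected cells of this single line. No label says that the control arrays came from separate cultures, so p-values measure the spread between these arrays, which may be technical, and the spread within the Las1L pair also holds differences between the siRNAs. The siRNAs are shown because the Las1L pair are different molecules, with no shared run longer than 4 bases. The labels do not say which strand is written.
Las1L siRNA #1: cugauacgcuguaagcucu
Las1L siRNA #2: cauuuauacccagagugga
control siRNA: gaucauacgugcgaucaga

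Cells keep separate sets of these enzymes. The cytosolic set serves the ribosomes that translate nuclear genes, and several of its members sit together in the multisynthetase complex. The mitochondrial set is also encoded in the nucleus and imported, while GARS1 and KARS1 supply both compartments. Many cytosolic synthetase genes are known targets of ATF4, the factor that answers amino acid shortage, and WARS1 is known to be induced by interferon gamma.

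The LAS1L probe gave signals of 211.5 with Las1L siRNA #1 and 158.1 with Las1L siRNA #2, against 770 and 717.5 with control siRNA, in the normalized intensity units of the array. EPCAM, an epithelial surface protein, had 6794.3 and 6428.2 units on the Las1L arrays and 7035.3 and 6670.3 units on the control arrays. Of 5 epithelial markers tested, CDH1, the adhesion protein E-cadherin, rose by 0.43 (524.3 and 527.1 units on the Las1L arrays, 437.3 and 347.6 on the control arrays, adjusted p = 0.0194 in limma with the trend). KRT8, a keratin, was higher on both Las1L arrays than on both controls, at 0.13, without passing, and EPCAM, KRT18 and KRT19 overlapped, at -0.05, -0.04 and -0.07. Among 8 fibroblast, endothelial and leukocyte markers, 4 (PECAM1, VWF, PTPRC and CD3E) were not above the limit on enough arrays, and of the 4 tested 0 passed the limma fit with an intensity trend, where 1 (CD14, lower and near background) had an unadjusted p under 0.05. In such bulk RNA, fewer cells of a type and less RNA per cell cannot be told apart. The 2 Las1L arrays correlated at 0.989 over all genes tested, the 2 control arrays at 0.988, and arrays of different groups at 0.974 to 0.975.

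The words "rose" and "fell" are kept for an adjusted p (Benjamini-Hochberg over all genes tested) under 0.05 in limma with an intensity trend, which lets the variance that genes share depend on their signal. That fit called 22.1% of the 10466 genes, 11.3% as higher and 10.8% as lower. Without the trend limma called 4.78% of genes, 2.72% as higher and 2.05% as lower. When all 17689 tested probes were fitted together, unnamed ones included, it called 18.8% of genes with the trend (9.64% higher, 9.17% lower) and 0 without it, where 2676 had an unadjusted p under 0.05. The calls below therefore rest on the shared variance, and the values on each array are given first.

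WARS1, the cytosolic tryptophanyl-tRNA synthetase, was the member with the largest change. Its brighter probe (ILMN_2337655) had 334.3 units with Las1L siRNA #1 and 309.5 with Las1L siRNA #2, against 1359.2 and 1167.8 with control siRNA. Both Las1L arrays lay far below both controls, at 25.5% of the control level. WARS1 fell by 1.97 on the log2 scale (SE 0.11), a 3.92-fold lower signal, and ranked 6 from the bottom among the 10466 fold changes. Its adjusted p in limma was 2.18e-09 with the trend and 0.0268 without it. In the fit of all probes it was 7.25e-08 with the trend and 0.0555 without.

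A second probe of WARS1 (ILMN_1727271) gave the same direction. It had 144.1 and 129.7 units on the Las1L arrays, against 688.3 and 722.3 on the control arrays. The groups were again well apart, with 19.4% of the control signal left, a log2 fold change of -2.37 (SE 0.13, adjusted p = 5.27e-08 in limma with the trend over all tested probes, and 0.0523 without it). With each siRNA set against the control pair in a 3-group fit, WARS1 had log2 fold changes of -1.91 with siRNA #1 and -2.03 with siRNA #2, each with an adjusted p of 0.0384 in limma with the trend. That fit has 1 residual degree of freedom, assumes that a lone array varies like the controls, and called 0.717% of genes for siRNA #1 and 1.13% for siRNA #2. WARS1 was the only member it called for either siRNA, and these comparisons share their control arrays.

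**Figure D1:**
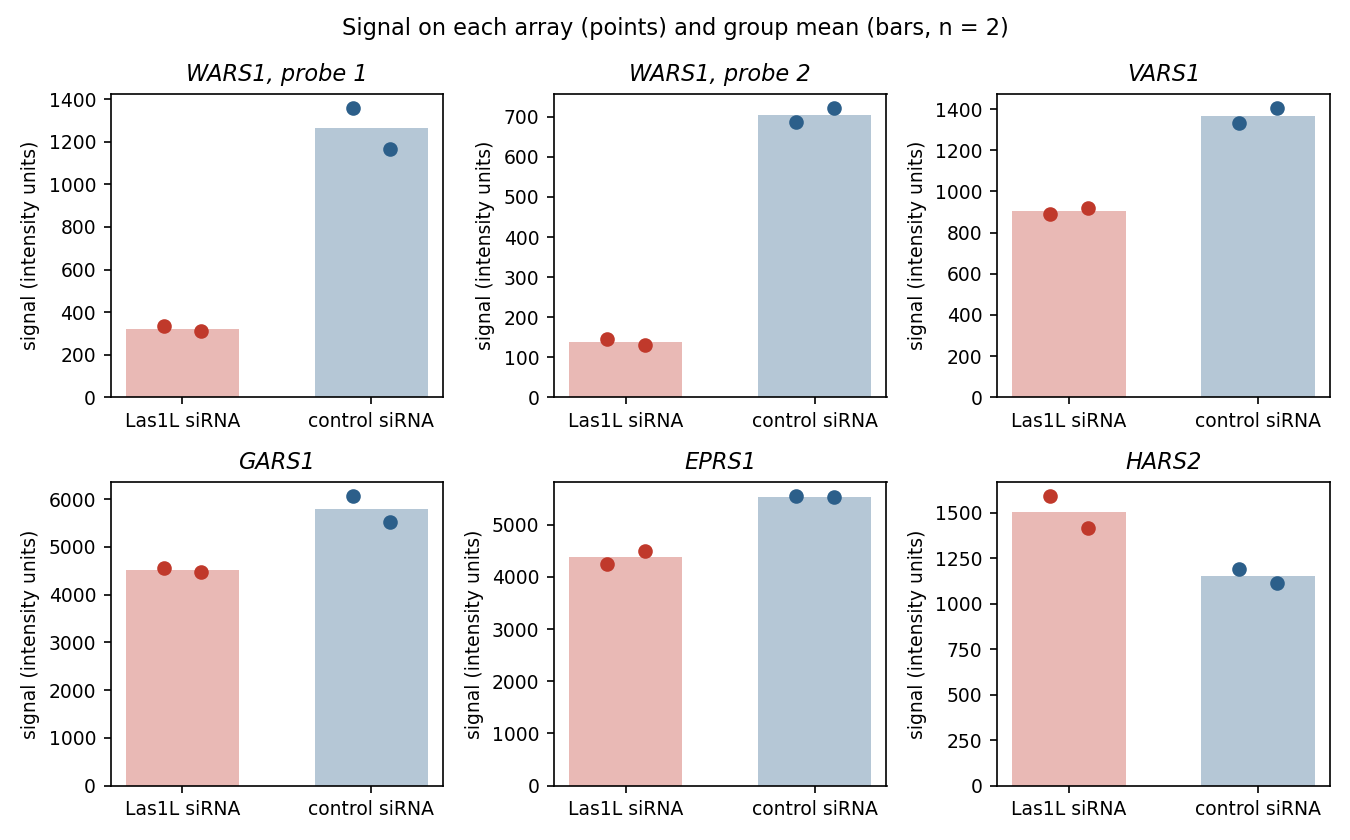
Signal in intensity units on each array (points) and the mean of each group (bars, 2 arrays each) for the 2 probes of WARS1 and for the other members that rose or fell. The Las1L siRNA points lie below the control siRNA points for WARS1, VARS1, GARS1 and EPRS1, and above them for HARS2.

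The WARS1 promoters are shown because both probes moved. RefSeq (GRCh38.p14) gives WARS1 2 starts, 980 bases apart on the minus strand of chromosome 14. The first stretch below is the upstream one, at chr14:100376278-100376577, and the second is the downstream one, at chr14:100375298-100375597, each a stretch of 300 bases that holds a start. Capitals mark the match to the core of the interferon-stimulated response element (GAAA, any 2 bases, GAAA), searched on both strands.
WARS1 upstream: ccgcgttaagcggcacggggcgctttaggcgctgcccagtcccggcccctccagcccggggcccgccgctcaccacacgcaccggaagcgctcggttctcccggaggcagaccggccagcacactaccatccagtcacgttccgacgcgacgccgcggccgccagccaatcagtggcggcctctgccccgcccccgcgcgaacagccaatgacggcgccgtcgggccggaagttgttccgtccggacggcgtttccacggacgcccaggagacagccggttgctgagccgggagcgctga
WARS1 downstream: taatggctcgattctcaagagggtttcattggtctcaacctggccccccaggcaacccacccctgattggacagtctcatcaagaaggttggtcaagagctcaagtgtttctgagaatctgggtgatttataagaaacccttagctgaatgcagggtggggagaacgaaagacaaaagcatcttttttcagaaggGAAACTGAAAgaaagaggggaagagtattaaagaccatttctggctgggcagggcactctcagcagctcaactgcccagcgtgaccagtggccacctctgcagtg

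The downstream stretch holds the match and the upstream stretch holds none. The core is found in 3.57% of all 35116 promoter stretches in the table, and among the 30 members with a promoter there it is also found at EARS2. A match to TTCNNNGAA, the gamma-activated site, which 7.66% of all stretches hold, also lies in the downstream WARS1 stretch. That site was found at 5 of the 30 members (CARS1, PARS2, TARS1, WARS1 and WARS2), in 17.9% of member stretches. Which start the probes report was not tested, and a match is a description of letters only.

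Genes of the interferon gamma response, a list that is known to include WARS1, were higher where WARS1 was lower. Of 10 genes with a probe 5 were tested, and 4 rose (80%, beside 11.3% of all genes) and 0 fell, with a median log2 fold change of 0.70, against -0.0001 over all genes. PSMB9, GBP1, GBP2, CXCL10 and IDO1 were under the background limit. UBE2L6, an enzyme of ISG15 conjugation, had 1167.8 and 1124 units on the Las1L arrays and 518.2 and 539.5 on the control arrays, and rose by 1.12 (SE 0.10, adjusted p = 3.23e-07 in limma with the trend). IRF1, an interferon-regulated transcription factor, rose by 0.87, TAP1, a peptide transporter, by 0.70 and B2M, the light chain of MHC class I, by 0.51, while IRF9 had a log2 fold change of 0.31 (adjusted p = 0.218).

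Among the other cytosolic enzymes, VARS1, which charges valine and binds the elongation factor complex that delivers charged tRNA, fell next most. It had 892.1 and 921.6 units on the Las1L arrays, against 1331 and 1405.9 on the control arrays. The groups did not overlap, and VARS1 fell by 0.59 (SE 0.10), a 1.51-fold lower signal with an adjusted p of 2.11e-04 in limma with the trend and 0.0568 without it. A second VARS1 probe was dim, with 29.4 and 39.3 units on the Las1L arrays against 20.7 and 39.3 on the control arrays, so it sat near the background limit of 28.1 and did not follow (log2 fold change 0.25, SE 0.44). Averaging the 2 probes gave VARS1 a log2 fold change of -0.17, and its call was lost (adjusted p = 0.555 in limma with the trend).

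GARS1, the glycyl-tRNA synthetase of both cytosol and mitochondria, had 4562.2 and 4468.4 units with Las1L siRNA, against 6058.4 and 5533.4 with control siRNA. It fell by 0.36 (SE 0.09), a 1.28-fold lower signal with an adjusted p of 0.00531 in limma with the trend and 0.132 without it. EPRS1, the fused glutamyl- and prolyl-tRNA synthetase of the multisynthetase complex, had 4243.5 and 4504.7 units with Las1L siRNA, against 5540.4 and 5521.1 with control siRNA. It fell by 0.34 (SE 0.08), a 1.27-fold lower signal with an adjusted p of 0.00705 in limma with the trend and 0.133 without it. For VARS1, GARS1 and EPRS1 the groups did not overlap, and the calls were lost when either Las1L array was left out (adjusted p between 0.0852 and 0.189).

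Of the 18 cytosolic enzymes tested, 4 fell and 0 rose, which is 22.2% lower beside 10.8% of all genes. By unadjusted p under 0.05 in the same fit 6 were lower and 0 higher. Without the trend limma called 1, WARS1. Both Las1L arrays lay below both control arrays for 9 of the 18 and above both for 0, beside 29.8% and 29.9% of all genes (59.7% in either direction). The median log2 fold change was -0.11, with an interquartile range from -0.23 to 0.04, and it was -0.09 without WARS1. It was -0.11 with siRNA #1 and -0.12 with siRNA #2, but -0.047 without control replicate 1 and -0.19 without control replicate 2.

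The remaining 14 cytosolic enzymes had log2 fold changes between -0.23 and 0.13. At the lower end, MARS1, the methionyl enzyme, had 1258.6 and 1265.3 units on the Las1L arrays and 1444.1 and 1514.2 on the control arrays. Its groups did not overlap, yet its log2 fold change of -0.23 missed the threshold (95% interval -0.42 to -0.03, adjusted p = 0.0886 in limma with the trend). TARS1, YARS1, KARS1 and RARS1, which charge threonine, tyrosine, lysine and arginine, were also lower on both Las1L arrays than on both controls, with log2 fold changes of -0.22, -0.17, -0.17 and -0.13 and adjusted p from 0.133 to 0.325. At the upper end, FARSB, the beta subunit of the phenylalanyl enzyme, had 12050.8 and 13500.3 units on the Las1L arrays against 12144.9 and 11257.9 on the control arrays. The groups overlapped, with a log2 fold change of 0.13 (95% interval -0.06 to 0.31). FARSA, its alpha partner, had one of -0.08.

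NARS1, QARS1, LARS1, IARS1, HARS1, SARS1 and AARS1 lay between -0.09 and 0.08, and for each of them the groups overlapped. Their 95% intervals reach no lower than -0.28 and no higher than 0.31, and a value as low as that of VARS1 lies outside them. IARS1, the isoleucyl enzyme and the highest of the complex, had 2326.6 and 2439.2 units on the Las1L arrays and 2445.8 and 2176.2 on the control arrays. Of the 7 multisynthetase complex enzymes, EPRS1 fell and 6 did not pass, with a median of -0.13. Of 9 cytosolic enzymes of class I, whose catalytic fold is shared with WARS1, 3 fell (WARS1, VARS1 and EPRS1, which also carries a class II domain), and of 9 of class II 1 fell (GARS1), with medians of -0.17 and -0.08. Beside the 10.8% of all genes that fell, these counts are 33.3% of class I, 11.1% of class II and 14.3% of the complex, the last pair near that background.

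**Figure D2:**
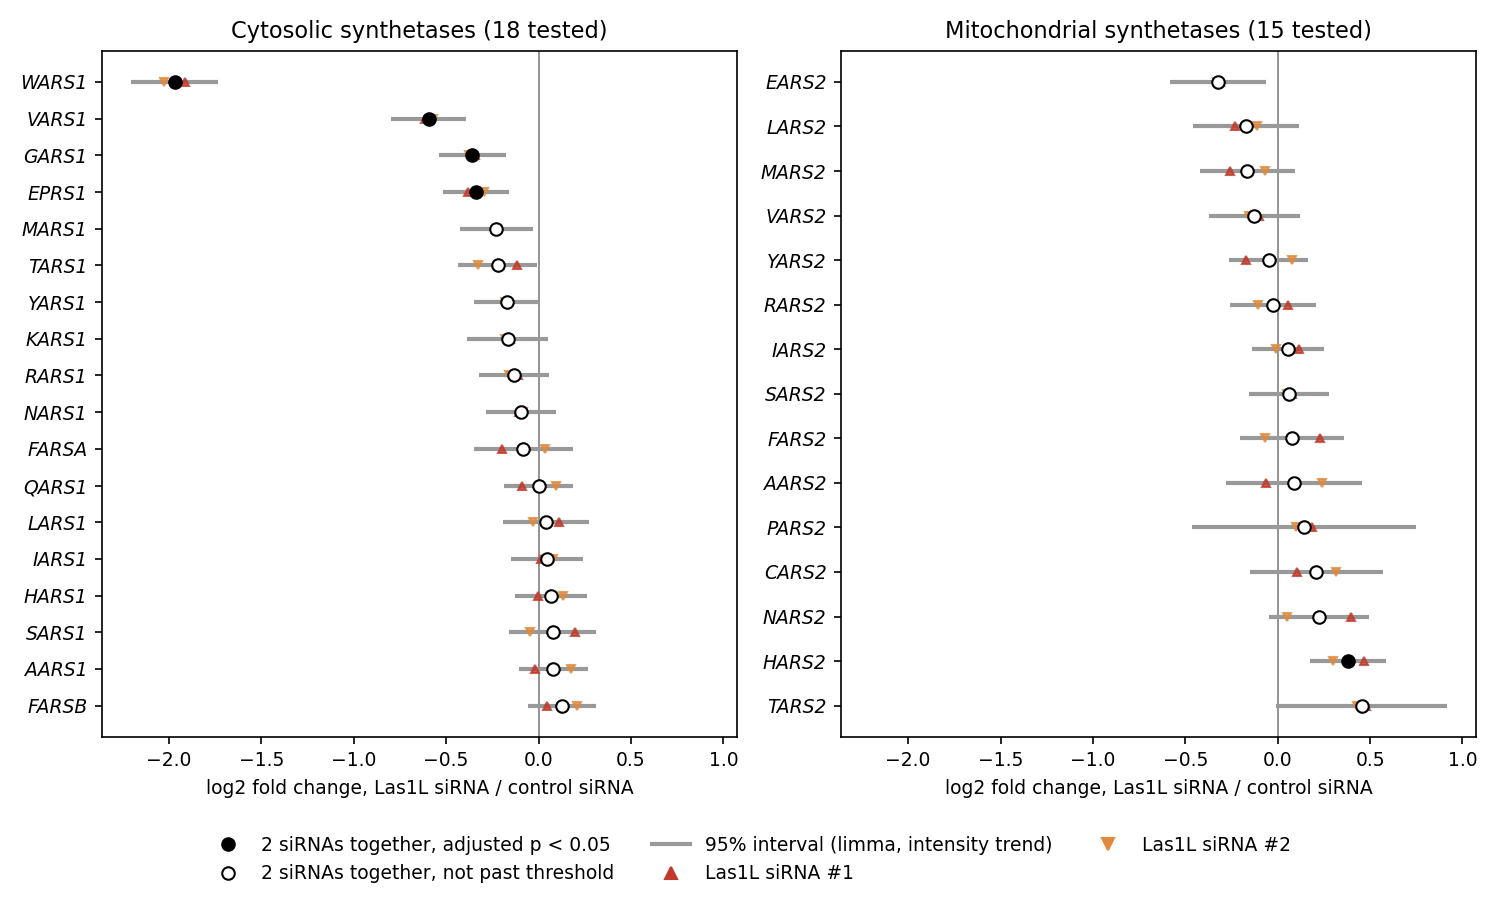
Log2 fold change of each tested synthetase, cytosolic on the left and mitochondrial on the right, with circles for the 2 Las1L siRNAs together, grey bars for the 95% interval of limma with an intensity trend, and triangles for siRNA #1 and siRNA #2 each against the control pair. WARS1 stands at -1.97, and filled circles mark the 5 members with an adjusted p under 0.05.

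The mitochondrial enzymes gave a different count. Of 15 tested, 1 rose and 0 fell, beside 11.3% of all genes higher and 10.8% lower, and by unadjusted p under 0.05 1 was higher and 1 lower. Without the trend limma called 0, with 2 higher and 0 lower at an unadjusted p under 0.05. Both Las1L arrays lay above both control arrays for 5 (33.3%, beside 29.9% of all genes) and below both for 2 (13.3%, beside 29.8%). The median log2 fold change was 0.06. It was 0.08 with siRNA #1 and 0.05 with siRNA #2, but 0.014 without control replicate 1 and 0.017 without control replicate 2. Whether the 2 sets of enzymes differ was not tested, since a list chosen in this way supports no p-value.

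HARS2, the mitochondrial histidyl-tRNA synthetase, was the member that rose. It had 1588.1 and 1415 units on the Las1L arrays, against 1189.8 and 1113.5 on the control arrays, with no overlap. It rose by 0.38 (SE 0.10, adjusted p = 0.00895 in limma with the trend and 0.134 without it). The adjusted p was 0.219 without siRNA #1, 0.129 without siRNA #2 and 0.0547 without control replicate 2. Its neighbour HARS1, the cytosolic enzyme for the same amino acid, had 2033.9 and 2229.3 units with Las1L siRNA against 1955.2 and 2117.8 with control siRNA. The HARS1 groups overlapped, and its log2 fold change was 0.07 (95% interval -0.13 to 0.26).

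HARS1 and HARS2 are read in opposite directions from starts 85 bases apart, which is why the stretch between them is shown. It lies at chr5:140691370-140691455 (RefSeq, GRCh38.p14) and is written on the plus strand, with capitals for the annotated start of HARS1 at its left end and of HARS2 at its right end.
HARS1 to HARS2: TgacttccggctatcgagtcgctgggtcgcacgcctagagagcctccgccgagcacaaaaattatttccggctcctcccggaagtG
The log2 fold changes on the 2 sides of this stretch differed by 0.32, HARS2 being the higher, and the difference itself was not tested.

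TARS2, the mitochondrial threonyl enzyme, had the highest log2 fold change of the set at 0.45 (95% interval -0.01 to 0.92). It had 103.4 and 100 units on the Las1L arrays and 82.1 and 67.1 on the control arrays, which did not overlap, and its adjusted p in limma with the trend was 0.155. EARS2, the mitochondrial glutamyl enzyme, had the lowest at -0.32 (95% interval -0.58 to -0.06). It had 374.3 and 370.2 units on the Las1L arrays and 511.6 and 423.6 on the control arrays, again without overlap, and its adjusted p was 0.0726. Without control replicate 1 its log2 fold change was -0.19 (adjusted p = 0.408 in limma with the trend), and without control replicate 2 it was -0.46 (0.0373). NARS2, CARS2 and SARS2 were higher on both Las1L arrays than on both controls, with log2 fold changes of 0.22, 0.21 and 0.06, and MARS2 was lower, at -0.16. The other 8 (LARS2, VARS2, YARS2, RARS2, IARS2, FARS2, AARS2 and PARS2) had overlapping groups and log2 fold changes between -0.17 and 0.14. WARS2, the mitochondrial counterpart of WARS1, had -25.8 and -20.9 units on the Las1L arrays and -19 and -17.8 on the control arrays, so its probe gave no signal to compare.

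Cytosolic and mitochondrial enzymes for the same amino acid could be set side by side in 15 pairings, in which EPRS1 and FARS2 each appear in 2. The cytosolic log2 fold change was the lower of the 2 in 12 pairings and the higher in 3, with a median difference of -0.11. Taken on each array, the ratio of cytosolic to mitochondrial signal overlapped between the groups in 10 pairings. It was lower on both Las1L arrays than on both controls in 5, and higher in 0. Such counts were not made over other gene pairs, so they have no background beside them. The gap was -0.68 for threonine (TARS1 at -0.22, TARS2 at 0.45), -0.48 for proline (EPRS1 and PARS2), -0.47 for valine (VARS1 at -0.59, VARS2 at -0.13), and -0.32 for asparagine and for histidine. Leucine ran the other way by 0.21, with LARS1 at 0.04 and LARS2 at -0.17. For alanine, isoleucine, serine and glutamate the 2 values lay within 0.02 of each other. Of these, alanine, isoleucine and glutamate are counted among the 12 pairings with the cytosolic value lower.

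**Figure D3:**
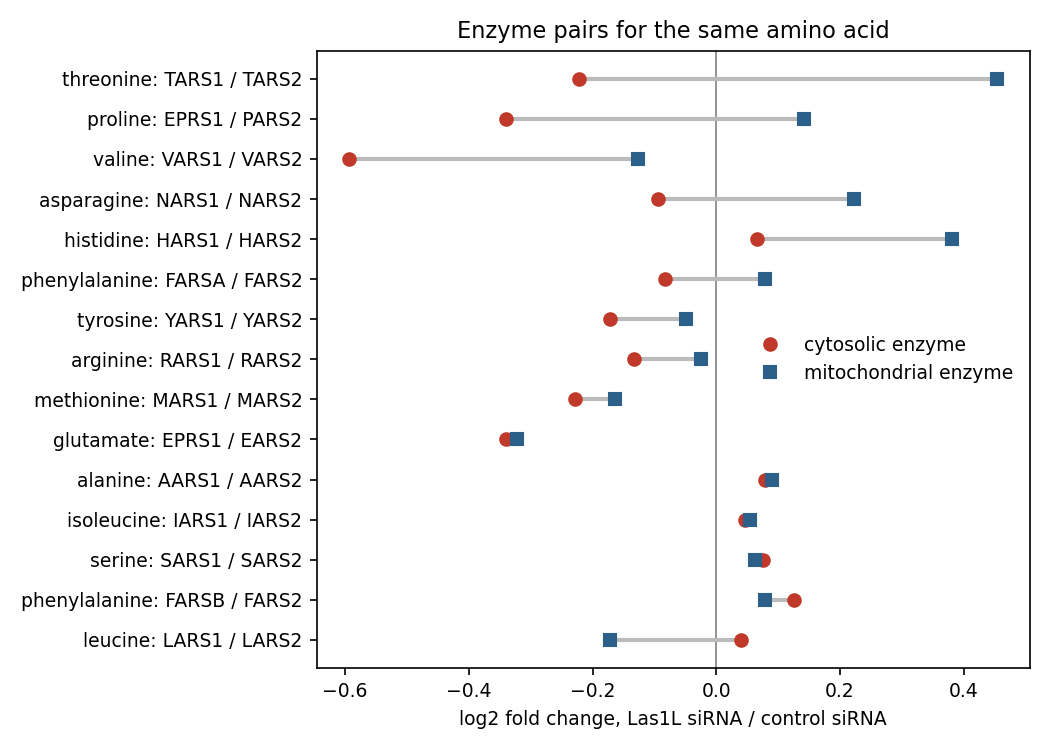
Log2 fold change, Las1L siRNA over control siRNA, of the cytosolic (circles) and mitochondrial (squares) enzyme for the same amino acid, joined by a line. The cytosolic circle lies left of the mitochondrial square in 12 of 15 pairings.

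The 2 siRNAs were also compared with each other. In the 3-group fit with the trend limma called 0 of 10466 genes between them, where 249 had an unadjusted p under 0.05, and 0 of the 33 members were among those. The lowest member p was 0.0741, for NARS2, whose log2 fold change was 0.39 with siRNA #1 and 0.05 with siRNA #2. With siRNA #1 and siRNA #2 in turn, VARS1 stood at -0.62 and -0.57, GARS1 at -0.34 and -0.37, EPRS1 at -0.38 and -0.30, and HARS2 at 0.46 and 0.30. The signs differed between the siRNAs in 11 of the 33 members and in 2245 of the 10466 genes, which is a larger share of the members. A gene whose groups do not overlap has 1 sign with both siRNAs by construction. With 1 array per siRNA these values do not show that the siRNAs act alike.

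**Figure D4:**
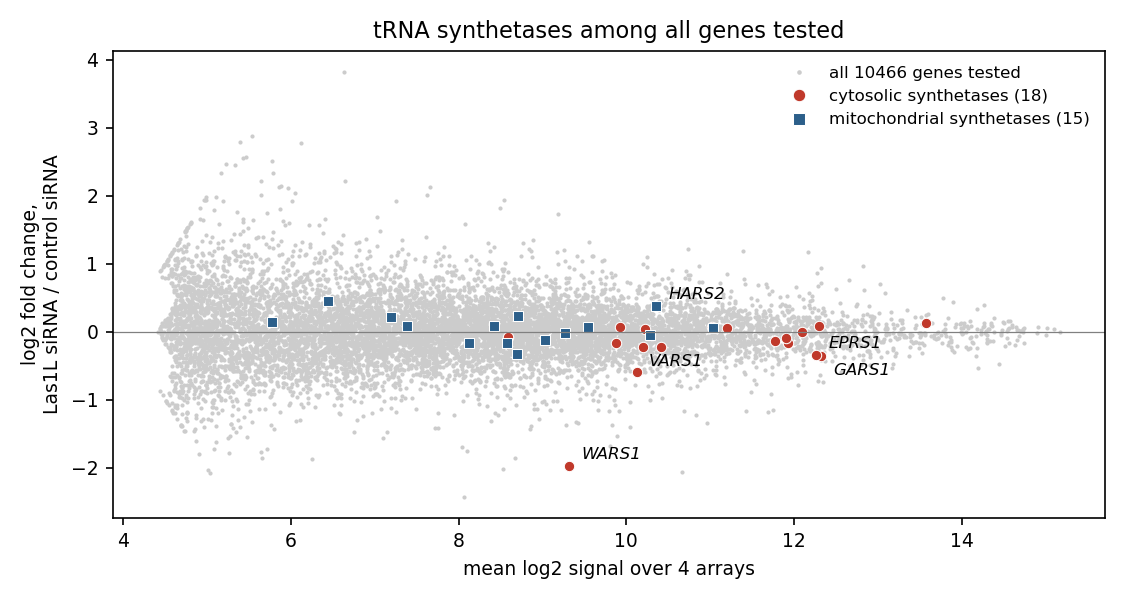
Log2 fold change, Las1L siRNA over control siRNA, against mean log2 signal over the 4 arrays for all 10466 genes tested (grey), the 18 cytosolic synthetases (red circles) and the 15 mitochondrial synthetases (blue squares). WARS1 lies apart at -1.97, and the other 32 synthetases lie between -0.59 and 0.45.

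The amino acid response was examined because it is known to drive many synthetase genes. Promoter stretches of 30 members were found in the RefSeq table. The composite C/EBP-ATF element bound by ATF4 was searched as TGATGNAA on both strands, and 3.62% of all stretches hold it. It was found at 7 of 16 cytosolic members (AARS1, CARS1, GARS1, IARS1, MARS1, NARS1 and TARS1) and at 1 of 14 mitochondrial members (YARS2). Counted by stretch, since some members have several, 8 of 39 member stretches hold it (20.5%). The stretches of 40 bases around it are shown for 5 cytosolic members, with the match in capitals, to set the shared letters beside the members' different values.
GARS1, chr7:30594829-30594868, plus strand: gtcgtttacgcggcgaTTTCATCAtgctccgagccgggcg
MARS1, chr12:57488048-57488087, plus strand: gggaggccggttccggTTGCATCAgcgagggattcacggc
TARS1, chr5:33440951-33440990, plus strand: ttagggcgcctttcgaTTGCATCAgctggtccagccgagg
IARS1, chr9:92293687-92293726, minus strand: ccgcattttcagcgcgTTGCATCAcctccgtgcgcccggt
AARS1, chr16:70289670-70289709, minus strand: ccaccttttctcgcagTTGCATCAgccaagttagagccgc

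Of the cytosolic members with the element, GARS1 fell, MARS1, TARS1 and NARS1 had log2 fold changes of -0.23, -0.22 and -0.09, and IARS1 and AARS1 had 0.05 and 0.08. EPRS1 and WARS1, which fell, have no match to it in these stretches. VARS1, which also fell, has no stretch among those searched. The transcript of ATF4 itself, a gene in none of the lists examined here, fell by 0.29 (adjusted p = 0.0197 in limma with the trend). These arrays do not measure the ATF4 protein. Of 11 other genes of the amino acid response 8 were tested, with a median of 0.26. Of these, 3 rose (37.5%, beside 11.3% of all genes) and 1 fell (12.5%, beside 10.8%). ATF3, a stress-induced transcription factor, had 420.5 and 398.7 units on the Las1L arrays and 202.5 and 241.5 on the control arrays and rose by 0.89 (adjusted p = 1.05e-04 in limma with the trend). SESN2, which is also a p53 target, had 81.3 and 72.8 units on the Las1L arrays and 24.6 and 35.8 on the control arrays, which lie near background, and rose by 1.37. ASNS, asparagine synthetase, rose by 0.30. TRIB3, a pseudokinase, had 1278.4 and 1264 units on the Las1L arrays and 1626.2 and 1981.3 on the control arrays, and fell by 0.50. DDIT3, a pro-apoptotic factor of this response, had a log2 fold change of 0.42 (adjusted p = 0.0646). In limma without the trend ATF3 and SESN2 passed (adjusted p = 0.0453 and 0.0474), and ASNS and TRIB3 did not (0.211 and 0.113).

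**Figure D5:**
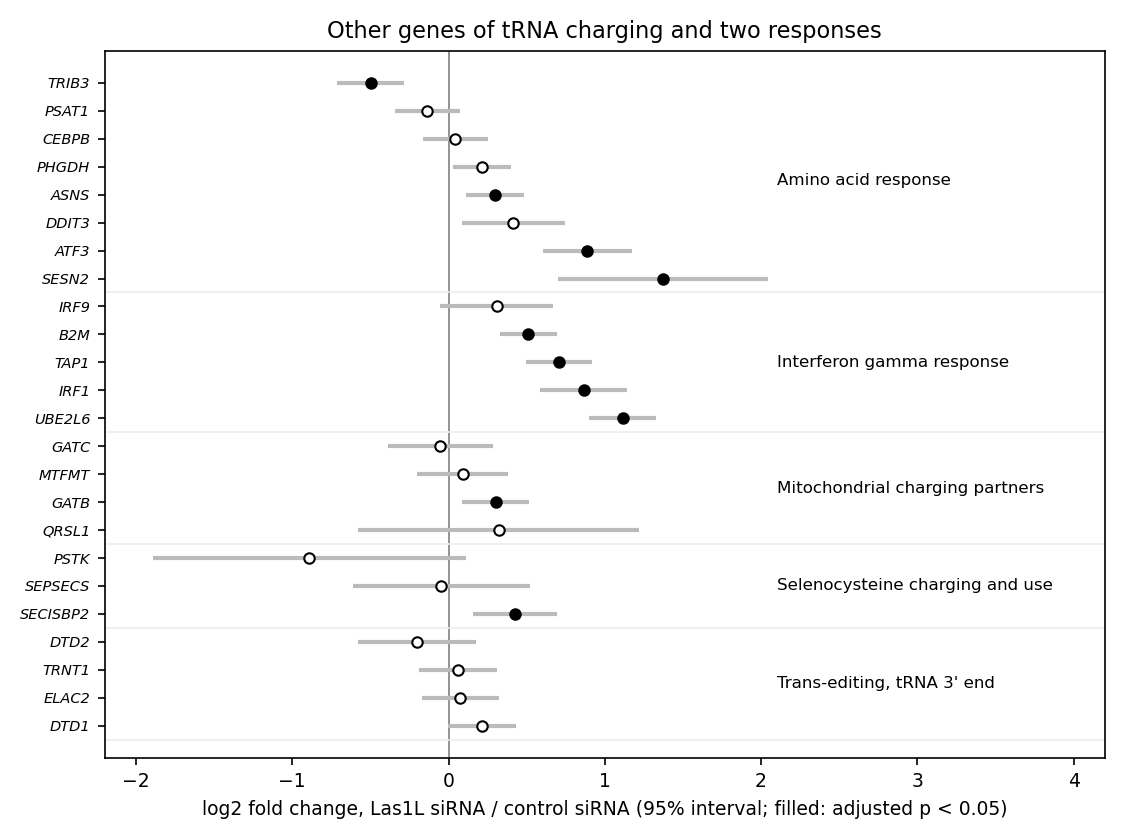
Log2 fold change, Las1L siRNA over control siRNA, with its 95% interval from limma with an intensity trend. Shown are tested genes of the amino acid response, the interferon gamma response and other factors of tRNA charging and use. Filled circles passed an adjusted p of 0.05, and the 5 interferon gamma genes all lie right of 0.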

How the data were processed

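The deposited value table holds intensity of 47323 probes on each of 4 arrays, made by the authors with GenomeStudio per the submitters' processing notes. Version and settings of that program: not given in the sources used here. Values are linear and uncentred, 26.9% lie below 0, and each array has a median of 14.9. The arrays also share their highest value, as quantile normalization gives. A further table stayed out of use: its 8 value columns match the labels of no sample.

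A floor of 16 units was applied before the log2 step. Background noise was the root mean square of values below 0 (17.1 units), and the limit its one-sided 0.05 point (28.1 units). This filter stands in for detection p-values. Probes were named from the platform annotation, with 30074 symbols updated by Entrez ID: 30113 probes had 1 symbol, 8 several and 17202 none. Each gene was taken at its tested probe with the highest mean. limma 3.58.1 (R 4.3.3) was run with and without an intensity trend, two-sided, over all 10466 genes. Both fits were also run on simulated data. The simulated noise depended on mean signal alone, with no variance particular to a gene, so it cannot show how reliable the calls on these arrays are. Prior degrees of freedom came to 16.9 (trend) and 2.43 (no trend), against 2 residual ones from the arrays. Every member is accounted for. Values on each array are given for members past the threshold, for WARS1 and WARS2, and for the ends of each list. Alternatives were no dim-probe filter or a stricter one, other floors, cyclic loess, probe means, 3 groups and leaving out each array. Members, lists and tests were chosen with earlier results of these data known. The number of arrays limits the precision.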

Additional observations from a re-analysis of the deposited data

How the results depend on the processing

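The 5 called synthetases kept their direction in each of 13 other settings. WARS1 passed the threshold in 12 of the 13, the exception being no filter on dim probes (adjusted p = 0.0927 in limma with the trend), and its log2 fold change ranged from -2.17 to -1.78. VARS1 passed in 8, GARS1 and EPRS1 each in 7 and HARS2 in 6. The number of genes called with the trend, 2313, became 0 with no filter on dim probes (where 0 synthetases were called), 253 with a floor of 50, 500 with no trend, 670 with 3 groups, and 67 to 1789 without 1 array. Without the trend, 500 became 14 with no filter, 1224 above the limit on all 4 arrays, 2006 with an offset of 64, 2313 with the trend, 0 with 3 groups, 0 when all tested probes were fitted together, and 0 without any 1 array. The 4 cytosolic enzymes called lower became 0 with no filter, 2 with a floor of 50, 1 with no trend, 2 with 3 groups, and 1 to 4 without 1 array. The 1 mitochondrial enzyme called higher became 0 in the same 4 settings and 0 to 1 without 1 array, and the 0 called lower became 1 (EARS2) without control replicate 2. With probe means 3 cytosolic enzymes were called lower, VARS1 being lost. The cytosolic median ranged from -0.19 to -0.047 and the mitochondrial one from 0.014 to 0.076 without 1 array. The second WARS1 probe, with a log2 fold change of -2.37, had adjusted p = 0.0523 with no trend and 0.0516 with a floor of 50, and it also missed the threshold without Las1L siRNA #1 (0.067) and without Las1L siRNA #2 (0.0747). Its log2 fold change ranged from -2.44 to -2.29 without 1 array. The fit of all tested probes, the count called higher and the settings of the second WARS1 probe were chosen after seeing the data. For the changed counts the cause was not tested, beyond the smaller number of arrays. No paired analysis was possible because the replicate numbers in the sample descriptions are the same for both Las1L arrays, and the numbers of the Las1L siRNAs in the titles name molecules that pair with no control array.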

Other observations

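Other factors of tRNA charging and use were also read. GATB, a subunit of the amidotransferase that makes mitochondrial glutaminyl-tRNA, had 984.5 and 1044.4 units on the Las1L arrays against 790 and 857.7 on the control arrays. It rose by 0.30 (adjusted p = 0.0399 in limma with the trend and 0.176 without it). With all tested probes fitted together its adjusted p was 0.0583 with the trend. Its partner GATC had a log2 fold change of -0.05, and MTFMT, which formylates the mitochondrial initiator tRNA, had one of 0.09. QRSL1, another partner of GATB, had 36.2 and 32 units on the Las1L arrays and 34.9 and 21.3 on the control arrays. These lie near background, with a log2 fold change of 0.32 that did not pass. SECISBP2, which helps ribosomes to read selenocysteine codons, had 386.1 and 365.7 units on the Las1L arrays against 266 and 293.8 on the control arrays. It rose by 0.43 (adjusted p = 0.0218 in limma with the trend, 0.106 without). The other selenocysteine genes tested, PSTK and SEPSECS, had log2 fold changes of -0.89 and -0.04 and did not pass. PSTK lay near background, with 22.8 and -2.7 units on the Las1L arrays and 44.3 and 28.3 on the control arrays. Of 4 editing and tRNA 3′ end factors tested 0 passed either fit (0 with an unadjusted p under 0.05 in limma with or without the trend), and XPOT, the tRNA export receptor, had a log2 fold change of 0.02.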
